A study of Drosophila melanogaster with 4 samples.

Results

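The inducible Hsp70 genes of Drosophila, their relative Hsp68 and the heat shock factor gene Hsf were followed through nascent RNA of unstressed S2 cells. The genes were chosen by name: rows of the authors' GRO-seq table whose leading symbol was Hsp70Aa, Hsp70Ab, Hsp70Ba, Hsp70Bb, Hsp70Bbb, Hsp70Bc, Hsp68 or Hsf. All 8 were found, among 16612 rows of which 13939 were protein-coding. S2 cells are a Drosophila line, labelled as taken from embryos of 20 to 24 h, and the labels record growth at 25 °C with no heat shock, other treatment or genotype contrast. The 4 libraries were 2 of GRO-seq, in which nuclei extend engaged transcripts with a labelled nucleotide, and 2 of 5'GRO-seq, which keeps the capped ends of that RNA so that reads mark starts. The GRO-seq libraries are called Sample3 and Sample4 after the authors' columns, which carry no replicate number, and the 5'GRO-seq libraries replicates 1 and 2. The labels do not say whether replicates were separate cultures, so their spread may be technical.

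Hsp70 proteins bind unfolded segments of other proteins and release them in a cycle driven by ATP. In the fly the inducible copies are nearly silent at normal temperature and are among the most strongly transcribed genes within minutes of heat shock, when HSF trimers bind heat shock elements upstream of them. Before heat shock their promoters are a classical case of promoter-proximal pausing: RNA polymerase II starts, makes a short capped transcript and waits, with GAGA factor, NELF and DSIF at the promoter, until the kinase P-TEFb releases it. Hsf itself is transcribed constitutively, and HSF protein in unstressed cells is held as an inactive monomer with chaperones.

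Values are FPKM, reads per kilobase of the whole transcript span, scaled to a total of reads for each library. A reading near the start and one in the gene body thus count alike and were not separated. Whole reads recovered from the FPKM values gave normalising totals of 6572445 reads for Sample3 and 2474821 for Sample4. Summed over all rows, the recovered reads came to 6948225 and 2978680, above these totals. The totals are therefore not shown to be the sequencing depth, and the reason for the excess was not tested. The 5'GRO-seq libraries held 13979543 and 6710787 reads, from which the authors called 6782 and 9387 start sites. Of 12 hemocyte markers, expected for this macrophage-like line, 10 reached 1 FPKM in both libraries, whereas of 5 fat body and gut markers 4 were listed at 0. Of 5 neuron markers 2 reached 1 FPKM in both libraries, with elav highest at 10.06 and 10.12 FPKM, and of 4 muscle markers 1 did, Tm1, at 31.0 and 39.7 FPKM. Over all protein-coding rows, 55.0% reached 1 FPKM in both libraries. Intervals below are 95% exact intervals of the recovered reads and cover counting error only.

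The Hsp70 copies lie at a pair of loci on chromosome arm 3R, which the synonyms in the authors' table name 87A and 87C. In dm3 coordinates, Hsp70Aa occupied 7779885 to 7782266 and Hsp70Ab 7784257 to 7786631, with 1990 bp between them, and the table put both on the minus strand. The 87A pair is known as divergently transcribed, so the strand given for one of these rows is in doubt. If reads were counted by strand, the level of that row may be that of the wrong strand. The values of the 87A pair and of the sum over copies would then include it, which was not tested. Hsp70Ba, on the minus strand, spanned 8291175 to 8293498. Across a gap of 34733 bp followed a tandem of 3 copies on the plus strand: Hsp70Bbb (8328232 to 8330578), Hsp70Bb (8331515 to 8333861) and Hsp70Bc (8334798 to 8337183), each pair separated by 936 bp. The spans of the 6 copies ran from 2324 to 2386 bp. Hsp68, a single gene on 3R, occupied 19880802 to 19883032, and Hsf occupied 14017808 to 14022139 on 2R, both on the minus strand. The Hsp70 copies are nearly identical in sequence. How the authors placed reads that match several copies is not given in the sources used here, so the value of any single copy is uncertain and the sum over copies is the safer measure.

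Hsf and Hsp68 were transcribed at moderate levels in unstressed cells, whereas 5 of the 6 Hsp70 rows stayed under 3 FPKM in each library. Of the 8 genes, 3 reached 1 FPKM in both libraries (Hsf, Hsp68 and Hsp70Bb), against 55.0% of protein-coding rows. Without Sample4 the number was 6 and without Sample3 it was 4. No gene of the 8 was listed at 0 in either library. In bulk RNA a low level in all cells and a higher level in few cells cannot be told apart.

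Hsf, the transcription factor of the response, had 30.8 FPKM in Sample3 (28.8 to 33.0, from 878 reads) and 22.95 FPKM in Sample4 (20.2 to 26.0, from 246 reads). Its mean was 26.9 ± 5.58 FPKM (SD, n = 2), above 88.4% of protein-coding rows. Its difference, Sample4 minus Sample3, was -0.41 in log2(FPKM + 1). Of the 1721 protein-coding genes with a mean from 20 to 50 FPKM, 48.1% differed at least as much between the libraries, in either direction. Their median difference was 0.09, and 20.3% of them lay at or below the Hsf value.

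Hsp68, an inducible Hsp70-type chaperone, had 22.9 FPKM in Sample3 (20.5 to 25.4, from 335 reads) and 22.5 FPKM in Sample4 (18.7 to 26.8, from 124 reads). Its mean was 22.7 ± 0.275 FPKM (SD, n = 2), above 85.5% of protein-coding rows. The libraries gave nearly the same level, and 97.4% of genes of like level differed at least as much. Hsf exceeded Hsp68 by 1.35-fold in Sample3 and 1.02-fold in Sample4. The lowest Hsf value, 22.95 FPKM, was barely above the highest Hsp68 value, 22.86 FPKM, and in Sample4 the counting intervals of the genes overlapped, so their order rests on Sample3.

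**Figure D1:**
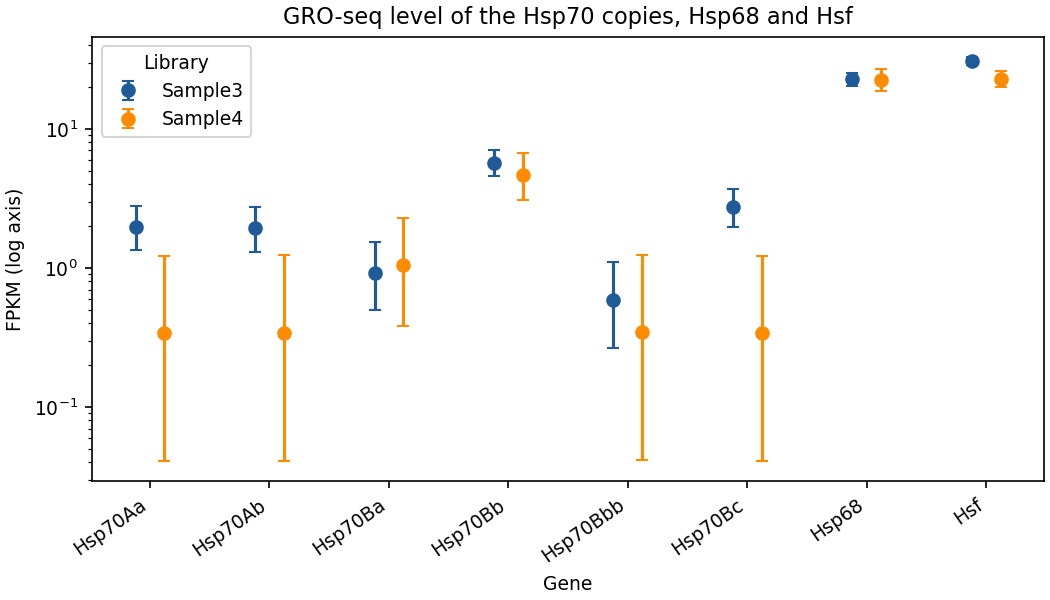
GRO-seq FPKM on a log axis for each of the 8 genes, with 1 point per library and bars for the 95% exact Poisson interval of the reads (counting error only). Hsf and Hsp68 sit above 20 FPKM in both libraries, Hsp70Bb near 5, and the other Hsp70 copies below 3.

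Among the Hsp70 copies, Hsp70Bb stood apart. It had 5.71 FPKM in Sample3 (4.58 to 7.03, from 88 reads) and 4.65 FPKM in Sample4 (3.06 to 6.77, from 27 reads), a mean of 5.18 ± 0.747 FPKM (SD, n = 2). This was 2.08-fold the next copy in Sample3, Hsp70Bc, and 4.45-fold the next copy in Sample4, Hsp70Ba, with no overlap of counting intervals in either library. Hsp70Bb held 40.9% of the reads of all copies in Sample3 (34.3 to 47.8%) and 65.9% in Sample4 (49.4 to 79.9%). In the tandem it lies in the middle, and its neighbours on both sides were lower.

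Hsp70Bc, the copy just downstream of it, had 2.74 FPKM from 43 reads in Sample3 and 0.339 FPKM from 2 reads in Sample4. Hsp70Bbb, just upstream, was the lowest by mean, with 0.584 FPKM from 9 reads and 0.344 FPKM from 2 reads. Hsp70Ba, the copy turned the other way at the same locus, had 0.917 FPKM from 14 reads in Sample3 and 1.04 FPKM from 6 reads in Sample4, and was the 1 gene of the 8 with the higher value in Sample4.

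The 87A copies had nearly equal values, to which the doubt over the strand of one of these rows applies as well. Hsp70Aa stood at 1.98 FPKM from 31 reads in Sample3 and Hsp70Ab at 1.92 FPKM from 30 reads. In Sample4 each was at 0.340 FPKM from 2 reads. Ordered by mean, Hsp70Bc, Hsp70Aa, Hsp70Ab and Hsp70Ba followed Hsp70Bb, and each neighbouring pair in this stretch had overlapping library values. Hsp70Ba and Hsp70Bbb did not overlap (lowest 0.917 against highest 0.584 FPKM), but their counting intervals did in both libraries.

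**Figure D2:**
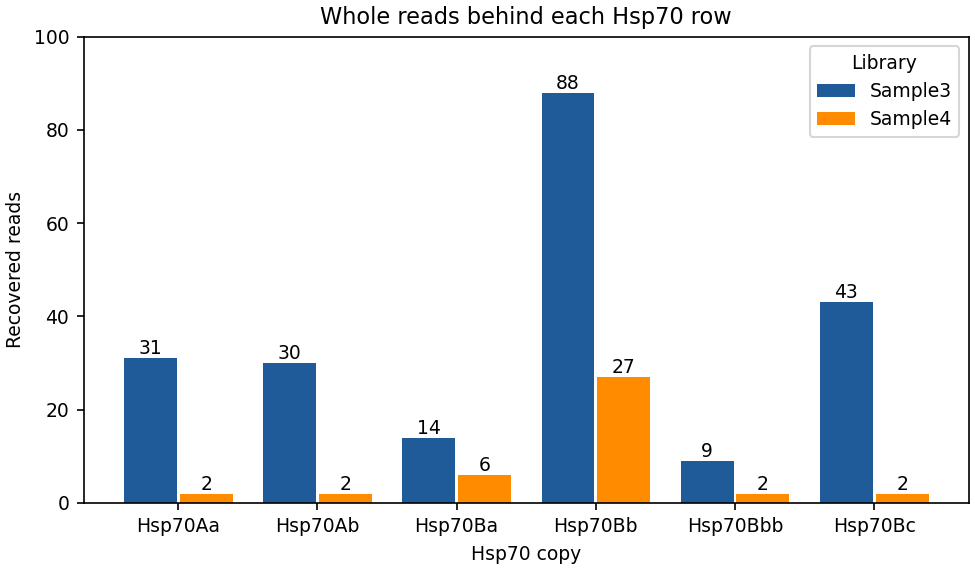
Whole reads recovered from the FPKM values for each Hsp70 copy, as 1 bar per library with the count above it. Hsp70Bb holds the most reads in both libraries, 88 and 27, and 4 of the 6 copies have 2 reads in Sample4.

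Summed over the 6 copies, Hsp70 had 13.9 FPKM from 215 reads in Sample3 and 7.06 FPKM from 41 reads in Sample4, a mean of 10.5 ± 4.81 FPKM (SD, n = 2). Taken as 1 gene, the sum would stand above 73.7% of protein-coding rows in Sample3 and 61.8% in Sample4. Hsf exceeded this sum by 2.23-fold in Sample3 and 3.25-fold in Sample4, and Hsp68 exceeded it by 1.65-fold and 3.18-fold.

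The libraries differed more for some copies than for others. The summed level was 1.97-fold higher in Sample3 than in Sample4 (1.41 to 2.83), and without Hsp70Bb it was 3.42-fold higher (1.96 to 6.43). Hsp70Bc differed by 8.10-fold (2.11 to 69.0) and the 87A pair together by 5.74-fold (2.13 to 21.7), intervals that reflect the 2 reads per copy in Sample4. For Hsp70Bb the ratio was 1.23 (0.790 to 1.97), which includes no difference. On the log2(FPKM + 1) scale Hsp70Bc differed by -1.48 (Sample4 minus Sample3), and 4.33% of the 1593 protein-coding genes with a mean from 1 to 5 FPKM differed at least as much. For Hsp70Aa the difference was -1.16 and the share 9.98%. In that range of levels the median difference was -0.29 and its SD 0.63, so low genes in general tended to be lower in Sample4. Above 0 and under 1 FPKM, where Hsp70Ba and Hsp70Bbb lie, the median was -0.09, but the pseudocount of 1 shrinks differences there. From 1 FPKM the median rose with level, to -0.15 from 5 to 20 FPKM and 0.09 from 20 to 50. It was 0.18 from 50 to 200 FPKM and 0.48 at 200 and over, so high genes tended to be higher in Sample4.

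Start sites were called at 3 of the 8 genes, and no gene had one in both lists. A site was taken at a gene when its centre lay within 100 bp of the annotated 5' end on the same strand. Replicate 1 had a site at 1 of the 8, Hsf, against 28.5% of protein-coding rows, and replicate 2 at 2 of the 8, Hsp68 and Hsp70Ab, against 17.0%. A pair of sites, 1 from each list and no more than 5 bp apart, was found at 0 of the 8, against 9.15%. With 8 genes these counts are too small to set them apart from the background shares.

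At Hsf the replicate 1 site was at 14022136 on 2R, 3 bp downstream of the annotated end, and stood 971st in that list of 6782. Replicate 1 had a further site on this strand 1025 bp upstream. In replicate 2 the nearest site on this strand was 5515 bp from the Hsf end. At Hsp68 the situation was the reverse: replicate 2 had a site at 19883029 on 3R, also 3 bp downstream, in position 908 of 9387, and the nearest site of replicate 1 on that strand was 9320 bp away. The lists carry no score, and file order is given here only as the authors' order. Both sites thus fell within a few bases of the annotated start, each in 1 library alone. Site calls are thresholded, with at least 4-fold over the matched GRO-seq library and 4-fold over the surrounding 1000 bp required. The threshold on reads set by the false discovery rate differed between the lists, 20 in replicate 1 and 14 in replicate 2. A start below these thresholds has no call.

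The site counted for Hsp70Ab lay at 7786714, 83 bp upstream of the end the table gives, and stood in position 7127 of the replicate 2 list. It also lies inside CG3281, a gene on the same strand that overlaps the Hsp70Ab row by 27 bp at its own 3' end. If Hsp70Ab is read on the plus strand, as the divergent arrangement of 87A would have it, this site is not at its start, no other site lies within 100 bp of the start, and the replicate 2 count falls to 1, Hsp68. An opposite-strand site of the same list lay 133 bp upstream of the same end.

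None of the other 5 Hsp70 rows had a site within 100 bp in either list. Around the 3 tandem copies at 87C neither list had a site on either strand within 2000 bp of the spans, and the nearest same-strand site was at least 42074 bp from a start. At Hsp70Aa, replicate 2 had a same-strand site 5 bp beyond the 3' end of the span and an opposite-strand site 643 bp upstream of the start. At Hsp70Ba, the replicate 1 site 149 bp beyond the 3' end belonged to the next gene on that strand, CG5608, 6 bp upstream of its annotated start. No site of either list lay inside the span of a Hsp70 copy, on either strand. Reads that match several copies bear on these calls as well, and their part in the missing calls was not tested.

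**Figure D3:**
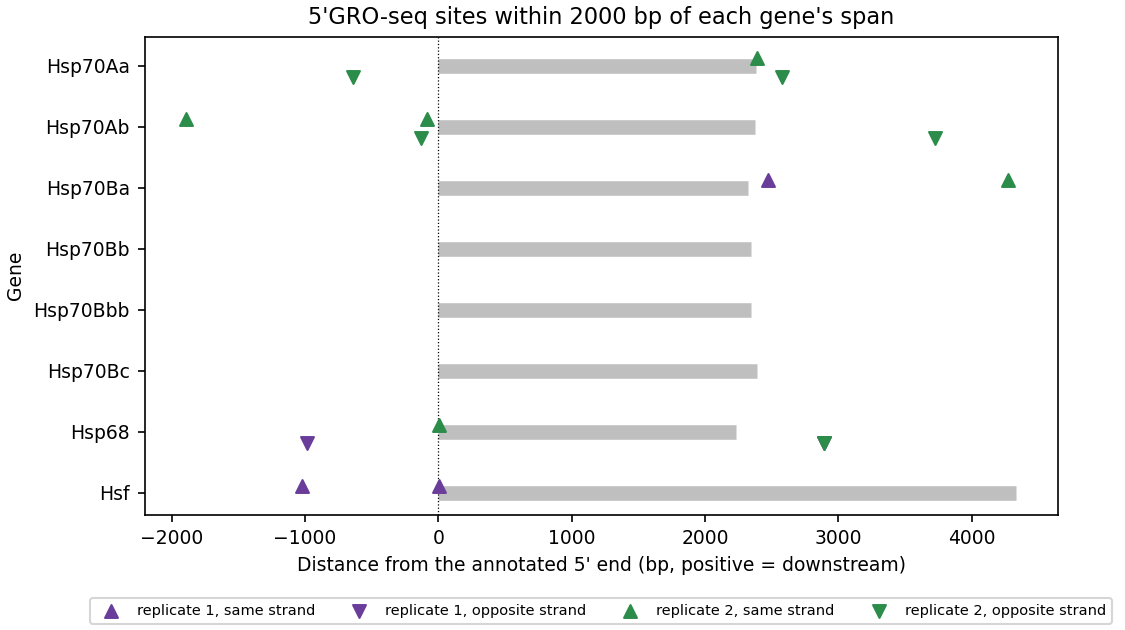
Called 5'GRO-seq sites within 2000 bp of each gene's span, by distance from the annotated 5' end in bp, with grey bars for the span, triangles pointing up for the gene's strand and down for the other, and colours for the replicates. Hsf and Hsp68 each have a site 3 bp from the start in 1 replicate, and the tandem copies Hsp70Bb, Hsp70Bbb and Hsp70Bc have none.

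How often a gene had a call depended on its level. Of protein-coding genes with a mean from 20 to 50 FPKM, where Hsf and Hsp68 lie, 49.1% had a site in replicate 1 and 32.6% in replicate 2, and 18.7% had sites of both lists within 5 bp. Of those from 5 to 20 FPKM, the range of Hsp70Bb, 51.3% and 31.1% had one. From 1 to 5 FPKM, where Hsp70Aa, Hsp70Ab and Hsp70Bc lie, the shares were 28.9% and 14.0%. Under 1 FPKM, where Hsp70Ba and Hsp70Bbb lie, they were 8.40% and 3.65%. Low level and near-identical sequence thus occur together in most of the copies without a call.

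**Figure D4:**
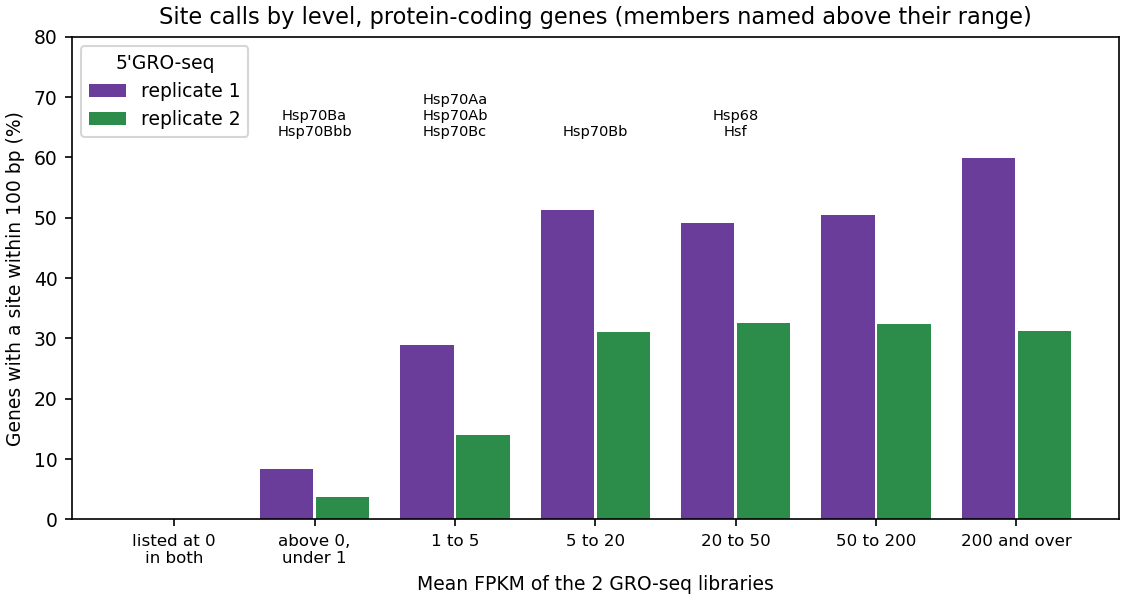
Share of protein-coding genes with a site within 100 bp of the annotated 5' end, by mean FPKM of the 2 GRO-seq libraries and by 5'GRO-seq replicate, with the genes described here named above their range. The share rises up to 5 FPKM and changes little from there to 200 FPKM.

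Of 8 other Hsp70 and Hsp110 genes, 6 had a mean above the summed inducible copies, and Hsc70-1 and Hsc70-2 were below it. The list had medians of 45.5 FPKM in Sample3 and 46.0 in Sample4, against 3.69 and 2.63 over protein-coding rows. Hsc70-4, the main cytosolic Hsp70 of the fly, had 439 FPKM in Sample3 and 580 in Sample4, 31.6-fold and 82.1-fold the summed Hsp70 copies. Hsc70-3, the BiP of the endoplasmic reticulum, had 301 and 459 FPKM, and CG2918, the table's symbol for Grp170, had 55.7 and 94.3 FPKM. Hsc70-1 was lowest, at 0.123 FPKM in Sample3 and listed at 0 in Sample4. Of the genes named in this paragraph after their values were seen, Hsc70-2 had 1.10 and 0.615 FPKM, and CG7182, the nearest above the sum, had 17.5 and 16.8 FPKM. Of the 8, 5 exceeded the Hsf mean. Neither Hsc70-4 nor Hsc70-3 had a site within 100 bp in either list. Hsc70-5 and Hsc70Cb, the Hsp110 of the fly, both also named after their values were seen, had the same site in both. They were the only 2 of the 8, against 9.15% of protein-coding rows. Sites were called at 4 of the 8 in replicate 1 and 3 in replicate 2, against 28.5% and 17.0%. From 20 to 50 FPKM, the range of the list's medians, the shares were 49.1% and 32.6%, and 18.7% for sites of both lists within 5 bp.

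Genes for partners that work with Hsp70 lay on both sides of Hsf, 6 of 19 above its mean. J proteins, which stimulate the ATPase of Hsp70, and other co-chaperones made up this list, with medians of 15.4 and 12.7 FPKM. Of the 19, 17 reached 1 FPKM in both libraries, against 55.0% of protein-coding rows. The J protein gene DnaJ-1 led them at 143 FPKM in Sample3 and 146 in Sample4, followed by Droj2 (71.7 and 100.1 FPKM) and by Hop, which links Hsp70 to Hsp90 (64.01 and 83.70 FPKM). CG2887 was lowest, with 0.494 and 0.328 FPKM. Sites were called at 10 of the 19 in replicate 1 and at 3 in replicate 2, against 28.5% and 17.0% of protein-coding rows. Of those from 5 to 20 FPKM, the range of the list's medians, 51.3% and 31.1% had one. The replicate 1 count was close to the share at this level, and the replicate 2 count to that of all protein-coding rows.

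Other genes named for heat shock spread over the whole range. Of 18, 10 reached 1 FPKM in both libraries, close to the 55.0% of protein-coding rows that did. Listed at 0 in both were 6, Hsp60B among them, against 2919 of the 13939 protein-coding rows. Hsp83, the fly Hsp90, had 413 FPKM in Sample3 and 436 in Sample4. Hsromega, a noncoding heat shock RNA, had 422 and 262 FPKM. The small heat shock gene Hsp27 had 65.7 and 119.7 FPKM, and a site 2 bp downstream of its annotated end in both lists. The small heat shock gene Hsp22, named after its values were seen, had 17.6 and 21.3 FPKM, close to Hsp68, and had its site at 5 bp in both lists. Of the 18, sites were called at 4 in replicate 1 and 3 in replicate 2, against 28.5% and 17.0% of protein-coding rows. Hsp27 and Hsp22 were the only 2 with sites of both lists within 5 bp, against 9.15% of those rows. These counts were close to the background shares. The alphagamma-element RNA CR32865, annotated between Hsp70Ba and Hsp70Bbb and also named after its values were seen, was listed at 0 in both libraries.

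**Figure D5:**
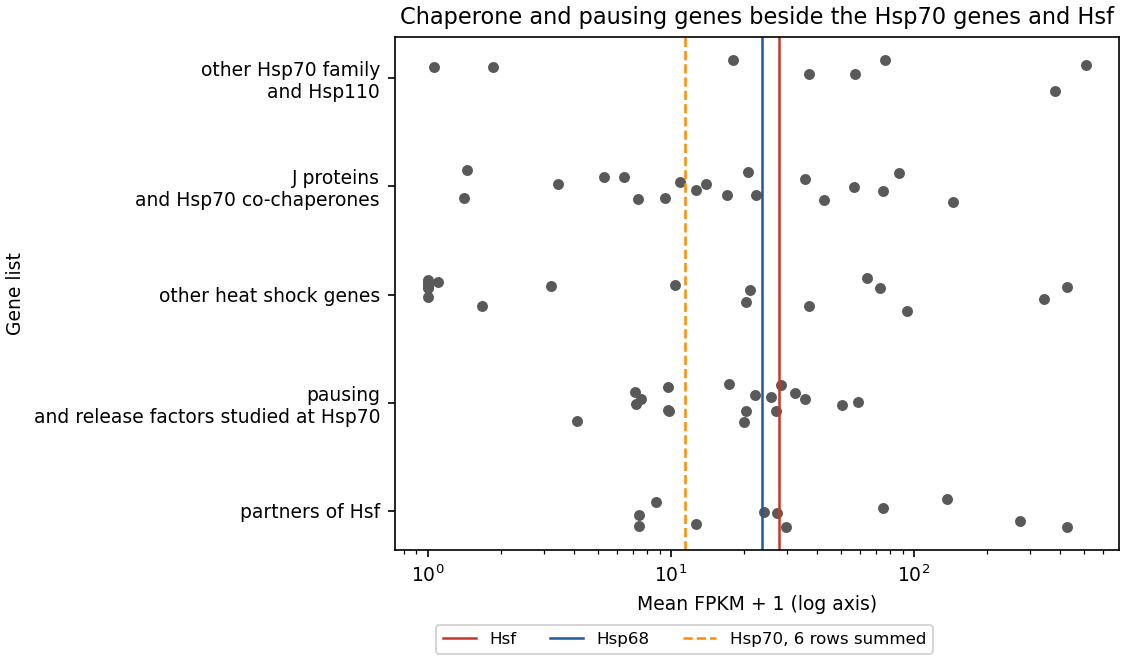
Mean FPKM + 1 of the 2 GRO-seq libraries on a log axis, with 1 point per gene of each list (vertical scatter within a list has no meaning), and lines for Hsf, Hsp68 and the sum of the 6 Hsp70 rows. The Hsp70 sum, 10.5 FPKM, lies below 6 of the 8 other Hsp70 and Hsp110 genes, and Hsf, 26.9 FPKM, is exceeded by 5 of the 18 pausing and release factors.

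Genes for the factors that hold and release polymerase at Hsp70 were transcribed throughout the list. All 18 reached 1 FPKM in both libraries, against 55.0% of protein-coding rows. Their medians were 18.9 and 19.1 FPKM, and 5 exceeded the Hsf mean. CycT, the cyclin of P-TEFb, led with 44.2 FPKM in Sample3 and 71.8 in Sample4. Clamp, a GA-binding zinc finger factor, had 57.6 and 42.1 FPKM, and Trl, which encodes GAGA factor, had 27.4 and 41.7 FPKM. Parp, which encodes the poly(ADP-ribose) polymerase acting at heat shock puffs, was lowest with 3.26 and 2.96 FPKM. In replicate 1, 12 of the 18 had a site, and in replicate 2, 5, against 28.5% and 17.0% of all protein-coding rows and 51.3% and 31.1% of those from 5 to 20 FPKM, the range of the list's medians.

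Genes for partners of HSF were all above the protein-coding median, 11 of 11, with medians of 25.3 and 27.6 FPKM. Beside Hsp83, the leading ones were smt3, which encodes SUMO, with 216 and 331 FPKM, and lwr, which encodes the SUMO-conjugating enzyme, with 103 and 168 FPKM. The Mediator subunit gene MED23 was lowest, with 7.03 and 5.73 FPKM. Hsf itself lay within the range of this list, below 5 of the 11. The lists share genes, Hop, Hsp83 and CHIP each being in a pair of them.

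Genes closest in level to each member over the 2 GRO-seq libraries were found by Euclidean distance of log2(FPKM + 1) among protein-coding genes, for the 6 members with a mean of at least 1 FPKM. Over 2 libraries such a likeness reflects level alone. For Hsf they were CG13397, Rab7 (a late endosome GTPase) and ND23 (a complex I subunit), at distances of 0.0321 to 0.0423. For Hsp68 they were Vang (a planar polarity gene), Sin and EloC (elongin C), at 0.0301 to 0.0421. Hsp70Aa and Hsp70Ab were each other's closest gene, at 0.0298. They were followed by CG18094 and CG30054 for Hsp70Aa and by CG18094 and CG5783 for Hsp70Ab. The closest to Hsp70Bb were CG5038, kz and CG9948, and to Hsp70Bc Grp, CG15449 and CG10205.

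Some genes lie close to the members. SMC1, a cohesin subunit gene, starts 977 bp upstream of Hsp68 on the opposite strand and had 10.99 FPKM in Sample3 and 9.37 in Sample4, below Hsp68, with a site 8 bp inside its end in replicate 1. Past the other end of Hsp68, CG6000 and CR44097 share an annotated start on the opposite strand. They had 21 reads each in Sample3, 4.97 and 4.56 FPKM, and were listed at 0 in Sample4, but a site lay 27 bp inside their start in replicate 1 and 24 bp inside it in replicate 2. CR44097 overlaps Hsp68 by 13 bp. Pcl, the Polycomb-like gene, starts 792 bp upstream of Hsf on the opposite strand and had 15.2 and 21.9 FPKM, with no site within 100 bp in either list. Dip3, whose 3' end faces that of Hsf, had 1.91 and 1.15 FPKM. CG3281, just upstream of Hsp70Ab on the strand the table gives, had 8.47 and 3.99 FPKM, and CG5608 beyond the 3' end of Hsp70Ba had 11.01 and 5.17 FPKM, each above the copy beside it in both libraries.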

How the data were processed

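Nascent RNA of S2 cells was measured by GRO-seq (2 libraries) and 5'GRO-seq (2 libraries). The GRO-seq table deposited by the authors gives FPKM, with a single dm3 RefSeq transcript for each gene. Multiplied by the span from start to end, 99.9% of low values in each library were whole reads within 0.1 read. These reads gave the normalising totals and the counting intervals. Sites were called by the authors with HOMER findPeaks in TSS mode for each library, per the file headers, with the GRO-seq library as input. The deposited lists hold a constant score and intervals of 151 bp, whose centre was used. Per the submitters' processing notes, tools were HOMER 4.7, Bowtie2 2.1.0 and CASAVA 1.8.2, and the build was dm3. The treatment of reads with several matches is not given in the sources used here.

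The members and gene lists were chosen with earlier results of these data known. Genes named besides the members were by mean FPKM each list's lowest and 3 highest, the 3 nearest in level to each member of at least 1 FPKM, and rows overlapping a member or starting within 2000 bp of it; others are marked in the text. All 8 accessions were found in a RefSeq table of Release 6, with the same symbols and span lengths. No condition is contrasted and each assay has 2 libraries, so no test across samples was made. Scripts were tested on simulated data. Promoter motifs and proteins were not analysed here. Alternatives varied distances, thresholds, libraries, copies and pseudocount. Scripts ran under Python 3.11.15 with pandas 2.3.3, numpy 2.4.6 and scipy 1.17.1, and figures were drawn with matplotlib 3.10.9.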

Additional observations from a re-analysis of the deposited data

How the results depend on the processing

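Of the counts and levels that answer a question about all members, 19 alternatives stayed within 1.5 times the count or 1 SD of the value, and 7 did not. Some of the 19 had little or no room to move. With 2 libraries, leaving 1 out returns the value of the other, which lies within 1 SD of the mean of the 2. A search for shared sites that found 0 cannot find more when it is narrowed. In replicate 2 the number of members with a site was 1 in place of 2 at a distance of 50 bp, among the leading 1000 sites in file order, and with Hsp70Ab on the plus strand, an alternative chosen after seeing the data. No site shared by the lists was found at a member under any distance or overlap tried. The settings of 50 bp, leading 1000 sites and same base only narrow the search, so they could not have found any. Members of at least 1 FPKM in both libraries numbered 3, with a range of 4 to 6 when either library was left out, and all 8 reached 0.1 FPKM. Hsf stood above 86.0 to 90.8% of protein-coding rows when either library was left out, and above 78.9% of those with at least 1 FPKM in both. Its mean was 2.57 times the summed Hsp70 copies, 2.23 to 3.25 times when either library was left out, and 5.19 times the largest copy. A pseudocount cannot change the sign of a difference between the libraries, so with pseudocounts of 0.1 and 5 only its size was compared. Of 16 such values, 6 moved by more than 1 SD, each in an Hsp70 copy other than Hsp70Bb. The SD here is that of the member's own 2 library values, not the SD over genes of like level. It grows with the difference itself, so a small difference counts as moved after a small shift. No paired analysis was possible because the GRO-seq columns carry no replicate number. The 2 reads behind 4 of the copies in Sample4 limit what can be said of any copy there.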
